A study of Mus musculus with 6 samples.

Results

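The genes described here are the subunits of the transcription factor NF-κB and the proteins that hold it in check, in regulatory T (Treg) cells that lack or retain transketolase. They were chosen by name: Nfkb1, Rela, Rel, Relb and Nfkb2 encode the subunits, and Nfkbia, Nfkbie, Nfkbid, Nfkbiz and Tnfaip3 encode inhibitors and feedback regulators. All 10 were found among the 18493 genes of the deposited table, and all 10 passed the filter on low counts, which left 12887 genes to test. The cKO cells came from Foxp3cre/+ TKTfl/fl female C57BL/6 mice and the WT cells from Foxp3cre/+ female C57BL/6 mice, all aged 7 weeks, with 3 libraries in each group. Cells from spleen and lymph node were sorted for CD4, CD25 and YFP, with no treatment. The controls therefore carry the Foxp3 Cre allele too, and in these heterozygous females that X-linked allele is active in only part of the Treg cells, which the YFP gate selects. The study asked how Treg cell function depends on transketolase, an enzyme of the non-oxidative pentose phosphate pathway. The labels do not say whether a library pools animals, so p-values here reflect only how far these libraries differ, which may be partly technical.

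NF-κB subunits pair into dimers that rest in the cytoplasm, bound by inhibitors of the IκB family. Signals from the T cell receptor, CD28 and receptors of the TNF family lead to phosphorylation and loss of the IκB proteins, after which the dimers enter the nucleus. Several of the genes they switch on encode inhibitors, among them Nfkbia and Tnfaip3, so that the pathway limits itself. In mouse Treg cells, Rel is known for its part in thymic development, and Rel and Rela together for the maintenance of the mature cells.

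None of the 10 genes passed the test for a difference between cKO and WT libraries. In CPM the groups overlapped for all of them but Relb, and 14.2% of all tested genes had no overlap. Of the 10, 4 differed widely between libraries of the same genotype. Tnfaip3, Rel, Nfkbia and Nfkb2 were high in cKO1 and WT2 and, in the cKO group, lowest in cKO3. The subunit genes Nfkb1 and Relb and the nuclear inhibitor Nfkbid stayed within a narrow band in all 6 libraries. For each of the 4 variable genes 1 promoter is given first, because NF-κB is known to act on them. It is followed by 1 promoter of Nfkbid, a gene that varied little. Where a gene had several promoters, the 1 with the most matches to the κB consensus is shown. Each sequence holds 250 bases before and 50 bases after an annotated start, read from RefSeq (GRCm38.p6, the same assembly as mm10). Capitals mark matches to the κB consensus on either strand, merged where they overlap. The sequences are:
Tnfaip3 promoter, chr10:19015361-19015660, reverse strand: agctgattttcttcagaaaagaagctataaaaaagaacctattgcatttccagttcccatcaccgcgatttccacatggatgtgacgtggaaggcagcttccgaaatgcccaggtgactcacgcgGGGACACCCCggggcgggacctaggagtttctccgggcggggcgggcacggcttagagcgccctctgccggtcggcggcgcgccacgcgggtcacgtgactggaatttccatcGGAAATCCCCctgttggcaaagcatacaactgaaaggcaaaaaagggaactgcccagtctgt
Rel promoter, chr11:23770920-23771219, reverse strand: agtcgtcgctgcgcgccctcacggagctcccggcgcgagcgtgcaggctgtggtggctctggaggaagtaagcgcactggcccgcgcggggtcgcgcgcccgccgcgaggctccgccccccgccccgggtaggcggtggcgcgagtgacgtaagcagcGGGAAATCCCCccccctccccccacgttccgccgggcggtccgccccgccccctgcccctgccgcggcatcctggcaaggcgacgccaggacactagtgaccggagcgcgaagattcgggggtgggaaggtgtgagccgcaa
Nfkbia promoter, chr12:55492598-55492897, reverse strand: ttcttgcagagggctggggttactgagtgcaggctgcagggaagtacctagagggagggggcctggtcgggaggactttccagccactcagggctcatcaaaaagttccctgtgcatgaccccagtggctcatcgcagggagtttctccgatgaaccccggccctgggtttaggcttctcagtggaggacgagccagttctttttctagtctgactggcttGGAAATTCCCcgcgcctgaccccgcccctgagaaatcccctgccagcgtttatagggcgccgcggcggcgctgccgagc
Nfkb2 promoter, chr19:46304487-46304786, forward strand: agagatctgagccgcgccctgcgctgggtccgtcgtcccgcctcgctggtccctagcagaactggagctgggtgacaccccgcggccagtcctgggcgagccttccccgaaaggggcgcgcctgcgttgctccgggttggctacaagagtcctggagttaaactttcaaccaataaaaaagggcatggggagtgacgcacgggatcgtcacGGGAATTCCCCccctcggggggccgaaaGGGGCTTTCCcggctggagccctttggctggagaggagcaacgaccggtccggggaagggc
Nfkbid promoter, chr7:30422156-30422455, forward strand: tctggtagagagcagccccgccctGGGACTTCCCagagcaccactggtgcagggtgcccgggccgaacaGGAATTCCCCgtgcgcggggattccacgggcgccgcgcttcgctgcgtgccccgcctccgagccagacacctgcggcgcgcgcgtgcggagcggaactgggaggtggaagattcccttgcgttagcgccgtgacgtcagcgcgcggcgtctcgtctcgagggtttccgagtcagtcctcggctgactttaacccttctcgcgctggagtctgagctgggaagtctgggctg

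Windows of this kind were found for 7 of the 10 genes (Nfkb2, Rel, Rela, Nfkbia, Nfkbid, Nfkbie and Tnfaip3), 12 windows in all, since a gene can have several starts. The κB consensus was found in 8 of the 12 windows and in 6 of the 7 genes. Windows of 1 gene can overlap, and a match of Nfkb2 falls in both of its later windows, so the matches come to 11 distinct stretches by genome position. It was found in 4.51% of all 32851 promoter windows of the same length. The broader pattern GGGNNNNNCC, of which the consensus is a special case, was found in all 12 windows and in 50.8% of all windows. The windows of these genes had a GC content of 47.0% to 75.0%, against a median of 52.7% over all windows, so base composition differs between the sets compared. Tnfaip3 held GGGGATTTCC on the minus strand of its window beginning 12 bases before the start, Nfkbia held GGGAATTTCC on the minus strand 29 bases before it, and Rel held overlapping matches from 92 bases before it. Nfkb2 held an overlapping group from 39 bases before the annotated start in the window shown above and a further match from 11 bases before that start. The Nfkbid window shown held 2 matches and the Nfkbie window 1, although both genes varied less than Tnfaip3, Rel, Nfkbia and Nfkb2. No match was found in the other Nfkbid windows, the other Tnfaip3 window or the Rela window. A match describes letters in a window and was not tested as a binding site.

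Tkt, the gene targeted in the cKO mice, lies on chromosome 14 (30549131 to 30574724) and checks the labels. It stood at 52.5, 44.8 and 31.9 CPM in the cKO libraries, against 126, 97.1 and 121 CPM in the WT libraries, with no overlap. Its log2 fold change, cKO over WT, was -1.41 ± 0.19 (SE). With an adjusted p of 0.0516 by edgeR's quasi-likelihood test, it missed the threshold of 0.05. The 6 libraries held 17180577 to 18215168 estimated reads. CPM here is the read count of a gene scaled to a common library size after normalization by the trimmed mean of M values, and adjusted p-values are by Benjamini-Hochberg over all 12887 genes. Of the whole table, 27 genes (0.21%) passed, of which 26 (0.202%) fell in cKO cells and 1 (0.00776%) rose. Summed markers of Treg cells (5 genes) stood at 3052, 2748 and 2686 CPM in cKO1, cKO2 and cKO3. In WT1, WT2 and WT3 they stood at 3098, 3662 and 3025 CPM. T cell markers (4 genes) stood at 2411, 2562 and 2539 CPM in the cKO libraries, against 2812, 2351 and 2690 CPM in the WT libraries. Markers of CD8 T and NK cells (5 genes) stood at 30.7, 36.8 and 32.6 CPM in cKO, against 38.1, 34.5 and 38.4 CPM in WT libraries. Summed B cell markers (8 genes) stood at 35.8, 21.5 and 17.2 CPM in cKO1, cKO2 and cKO3 and at 21.7 to 23.7 CPM in WT libraries. Myeloid markers (7 genes) stood at 61.2, 87.9 and 35.8 CPM in cKO1, cKO2 and cKO3 and at 29.9, 57.5 and 30.3 CPM in WT1, WT2 and WT3. Erythroid markers (4 genes) reached 125 CPM in cKO1 and no more than 4.06 CPM in any other library. The 4 stromal and endothelial markers in the table stood at 19.3, 14.5 and 19.2 CPM in cKO1, cKO2 and cKO3. In WT1, WT2 and WT3 they stood at 2.88, 18.2 and 3.88 CPM. WT2 was the highest WT library for the Treg, myeloid, stromal and erythroid sums. It was the lowest for the B cell, T cell and CD8 T and NK sums. Of the cKO libraries, cKO1 was highest for the Treg, B cell and erythroid sums and lowest for the T cell and CD8 T and NK sums. For the stromal sum cKO1 and cKO3 were nearly equal, and for the myeloid sum cKO2 was highest. WT2 and cKO1 also stood apart for several NF-κB genes. No marker of these lists was at 0 in all libraries, and the part of these cells in the results below was not tested. In bulk RNA, fewer cells of a type and less RNA per cell cannot be told apart.

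Rela, Nfkb1 and Rel encode the subunits of the canonical pathway. Nfkb1, whose product is a precursor cut to a DNA-binding subunit without an activation domain, stood at 491, 444 and 453 CPM in the cKO libraries, against 457, 406 and 447 CPM in the WT libraries. The groups overlapped, with WT2 lowest and cKO1 highest. Rela, which encodes the activating subunit of the classical dimer, stood at 235, 199 and 172 CPM in cKO and at 183, 222 and 191 CPM in WT libraries. The cKO libraries spanned the whole WT range. Rel, which encodes c-Rel, stood at 484, 289.6 and 213 CPM in cKO libraries, against 273, 675 and 270.5 CPM in WT libraries. WT2 was 2.49-fold above the lowest WT library and cKO1 was 2.28-fold above the lowest cKO library, so both spans exceeded the difference between the group means of 329 ± 139.8 CPM in cKO and 406 ± 233 CPM in WT (SD, n = 3 each).

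Relb and Nfkb2 encode the dimer of the alternative pathway, which receptors such as OX40 and BAFF-R engage through the kinase NIK. Relb stood at 71.9, 71.5 and 64.5 CPM in cKO libraries, against 76.6, 73.5 and 75.9 CPM in WT libraries. It was the only gene of the 10 whose groups did not overlap in CPM, a property that 14.2% of all tested genes had, and its fitted difference was small (log2 fold change -0.12 ± 0.07 SE, with an edgeR adjusted p of 0.809). On the FPKM scale, which is per length and depth, the groups did overlap, at 31.8, 32.9 and 29.7 in cKO and 35.5, 32.6 and 35.4 in WT libraries. Nfkb2, whose product is both an inhibitor and the precursor of the partner of RelB, stood at 281, 191 and 173 CPM in cKO libraries, against 186, 300.1 and 199 CPM in WT libraries. The highest library of each group, cKO1 and WT2, was 1.63-fold and 1.61-fold above the lowest of its own group.

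Among the inhibitors, those that hold NF-κB in the cytoplasm differed in spread. Nfkbia encodes IκBα, the best known IκB and itself an NF-κB target, and stood at 817, 751 and 406 CPM in cKO libraries, against 550.3, 972 and 635 CPM in WT libraries. Here cKO3 stood below all other libraries, and the span within cKO was 2.01-fold. Nfkbie encodes IκBε, a slower IκB, and stood at 60.6, 50.6 and 49.3 CPM in cKO libraries, against 58.0, 67.4 and 54.0 CPM in WT libraries. Its groups overlapped and its span within a group was at most 1.25-fold.

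Nfkbid and Nfkbiz encode nuclear IκB proteins that act at promoters rather than in the cytoplasm, and in mice Nfkbid takes part in the induction of Foxp3. Nfkbid stood at 168, 175 and 157 CPM in cKO libraries, against 174, 192 and 174 CPM in WT libraries. Nfkbiz stood at 493, 442 and 488 CPM in cKO libraries, against 480.6, 588 and 509 CPM in WT libraries. Both genes had overlapping groups, and WT2 was the highest library for each.

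Tnfaip3 encodes a ubiquitin-editing enzyme that ends signalling from TNF family and antigen receptors, and it was the most variable of the 10. It stood at 4612, 2332 and 1152 CPM in cKO libraries, against 2060.4, 4898 and 2195 CPM in WT libraries. The cKO libraries differed by up to 4.0-fold and the WT libraries by up to 2.38-fold. The group means were 2699 ± 1759 CPM in cKO and 3051 ± 1601 CPM in WT (SD, n = 3 each). Tnfaip3 alone took 0.448%, 0.235% and 0.117% of the estimated reads of the cKO libraries and 0.210%, 0.477% and 0.222% of those of the WT libraries. It ranked 3 among all genes by reads in cKO1 and in WT2, and 67 in cKO3.

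**Figure D1:**
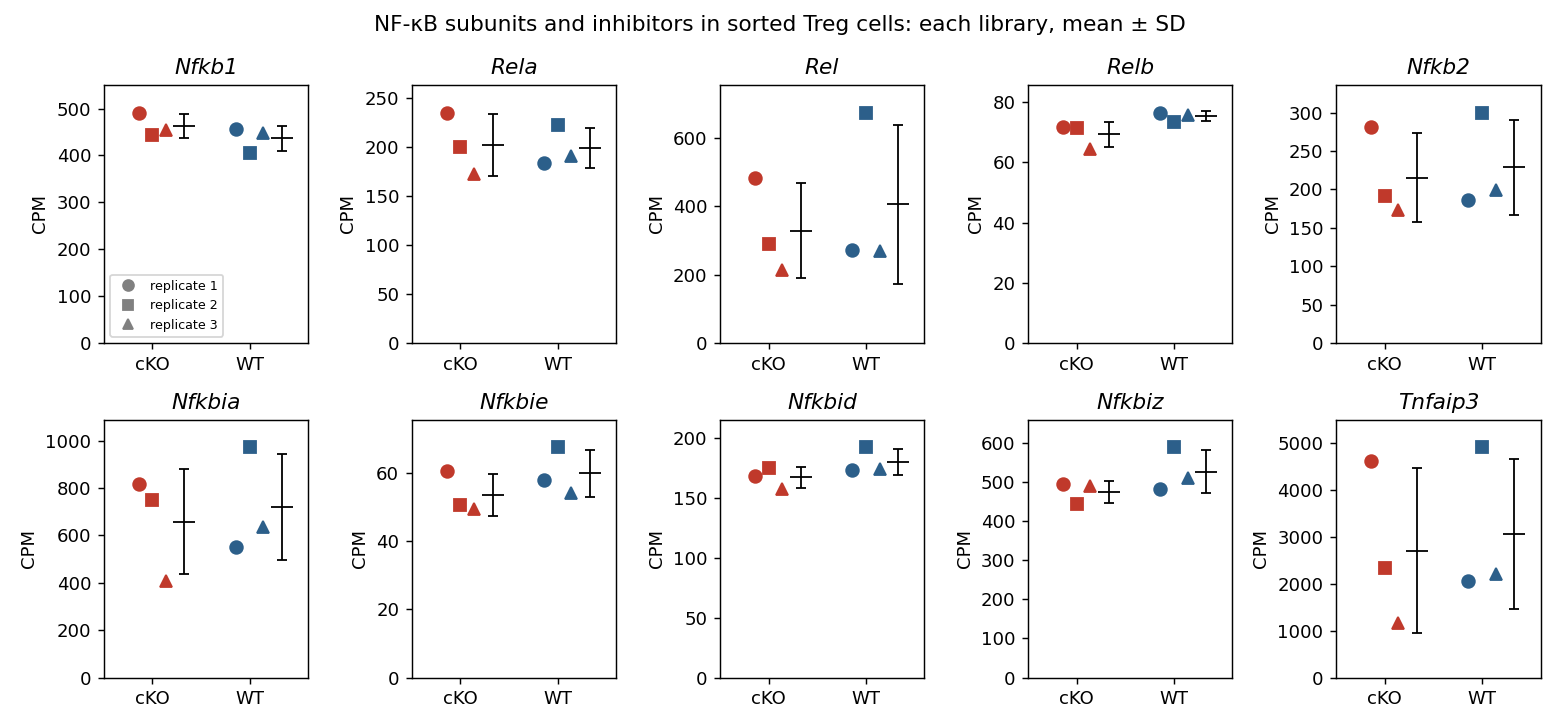
Level of each gene in CPM (vertical axes, starting at 0) in the 3 cKO libraries (red) and the 3 WT libraries (blue), with marker shape for the replicate number and black bars for the mean ± SD. The libraries overlap between groups for every gene except Relb, and cKO1 and WT2 stand above the rest of their own group for Tnfaip3, Rel and Nfkb2.

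Tested over the whole table, the genotype made no called difference to any of the 10 genes. The adjusted p-values lay between 0.809 for Relb and 0.993 for Rela (edgeR's quasi-likelihood test), and 0 of the 10 genes had an unadjusted p under 0.05, against 991 of the 12887 genes tested. The share called over the whole table was 0.21% in either direction, 0.202% lower and 0.00776% higher, so a count of 0 among 10 genes is near that background. DESeq2, which called 177 genes (1.37%), called 0 of the 10, as did each of the other alternatives. Several of those called no gene in the whole table, namely the replicate block and the fits without WT1, WT3, cKO1, cKO2 or cKO3. For these, the absence of a call among the 10 says nothing further. The fitted log2 fold change, cKO over WT, was below 0 in 8 genes, against 48.6% of all genes tested, and above 0 in Nfkb1 and Rela. The median was -0.12 over the 10 genes, against 0.004 over all genes tested. Without WT2, however, the median over the 10 genes was 0.07, so its sign rests on that library.

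How large a difference these data leave room for varied by gene. The 95% interval of the log2 fold change ran from -0.11 to 0.28 for Nfkb1, from -0.29 to 0.05 for Relb, from -0.29 to 0.08 for Nfkbid and from -0.38 to 0.08 for Nfkbiz. For Rela it ran from -0.28 to 0.33 and for Nfkbie from -0.44 to 0.12. It was wider for Nfkb2, at -0.65 to 0.47, and for Nfkbia, at -0.83 to 0.58. For Rel it ran from -1.31 to 0.70 and for Tnfaip3 from -1.41 to 1.05, so that a change of 2-fold in either direction lies within the interval of Tnfaip3. The fitted values themselves were -0.30 ± 0.43 (SE) for Rel and -0.18 ± 0.52 (SE) for Tnfaip3, with adjusted p-values of 0.956 and 0.986 (edgeR). Without WT2 the log2 fold change was 0.27 for Rel and 0.34 for Tnfaip3, and without cKO1 it was -0.69 for Rel and -0.81 for Tnfaip3. The sign also turned without WT2 for Nfkbia (0.15) and Nfkb2 (0.16), and without cKO3 for Tnfaip3 (0.19), Nfkbia (0.12) and Nfkb2 (0.05).

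**Figure D2:**
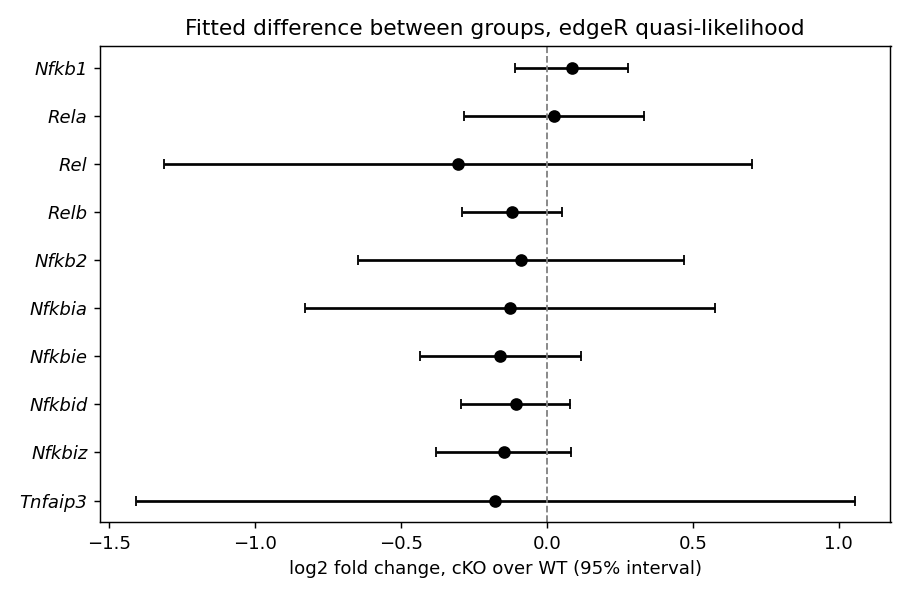
Fitted log2 fold change, cKO over WT (horizontal axis), of each gene with its 95% interval from the edgeR fit. All 10 intervals cross 0, and those of Tnfaip3 (-1.41 to 1.05) and Rel (-1.31 to 0.70) are the widest.

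The spread between libraries of the same genotype divided the 10 genes. As a measure, the SD of log2 CPM was pooled over both groups and ranked among the 4355 genes with a mean of at least 50 CPM, whose median SD was 0.11. Tnfaip3 had an SD of 0.86 (percentile 99.5) and 23 genes of that set, itself included, were at or above this value. Rel followed with 0.68 (percentile 98.9), Nfkbia with 0.49 (percentile 97.5) and Nfkb2 with 0.37 (percentile 95.5). Rela and Nfkbie were intermediate, with SDs of 0.19 and 0.16, and Nfkbiz had 0.12. Nfkb1, Nfkbid and Relb lay among the steadier genes of that set, with 0.08 (percentile 29.6), 0.08 (percentile 27.4) and 0.07 (percentile 16.9). Subunits (Rel against Nfkb1) and inhibitors (Tnfaip3 against Nfkbid) were both split in this way.

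**Figure D3:**
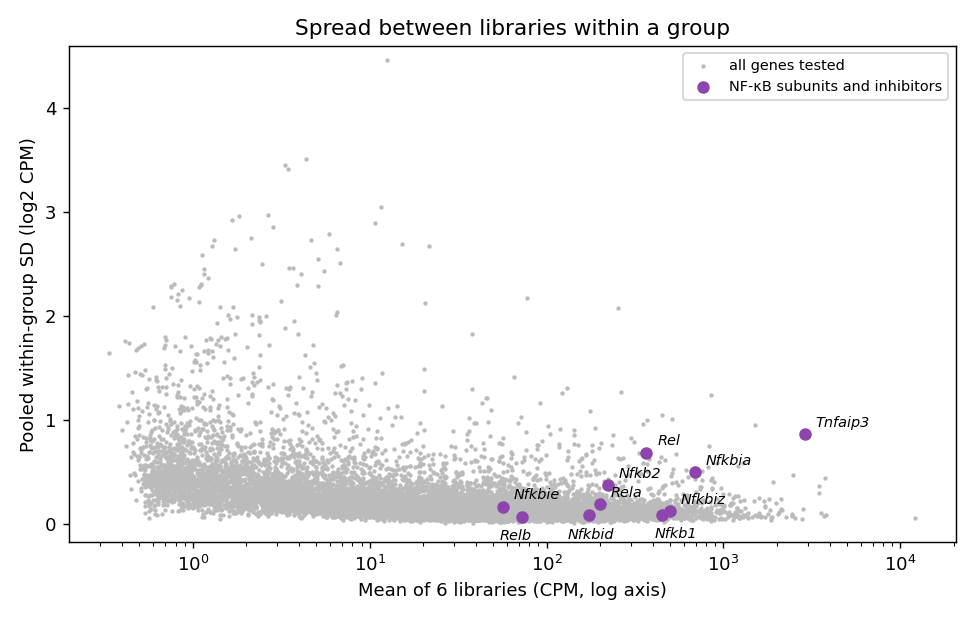
Pooled within-group SD of log2 CPM (vertical axis) against the mean of the 6 libraries in CPM (logarithmic horizontal axis) for all 12887 genes tested (grey) and the 10 NF-κB genes (purple). Tnfaip3, Rel, Nfkbia and Nfkb2 stand above the bulk of genes of like level, while Nfkb1, Nfkbid and Relb lie within it.

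The variable genes shared an order of libraries. Relative to the mean of the 6 libraries on the log2 scale, Tnfaip3 was at 0.86 in cKO1, -0.13 in cKO2 and -1.15 in cKO3, and at -0.31 in WT1, 0.94 in WT2 and -0.22 in WT3. Rel was at 0.52, -0.22 and -0.67 in cKO1, cKO2 and cKO3 and at -0.31, 1.0 and -0.32 in WT1, WT2 and WT3. Nfkbia and Nfkb2 likewise had WT2 highest (0.55 and 0.47) and cKO3 lowest (-0.70 and -0.32) of the 6 libraries. WT2 was the highest WT library for 8 of the 10 genes, as it was for 40.8% of all genes tested, and cKO1 was the highest cKO library for 9 of the 10, against 36.8% of all genes. cKO3 was the lowest cKO library for 8 of the 10, against 32.1% of all genes. Nfkb1 went the other way in WT2, which was its lowest library at -0.15.

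**Figure D4:**
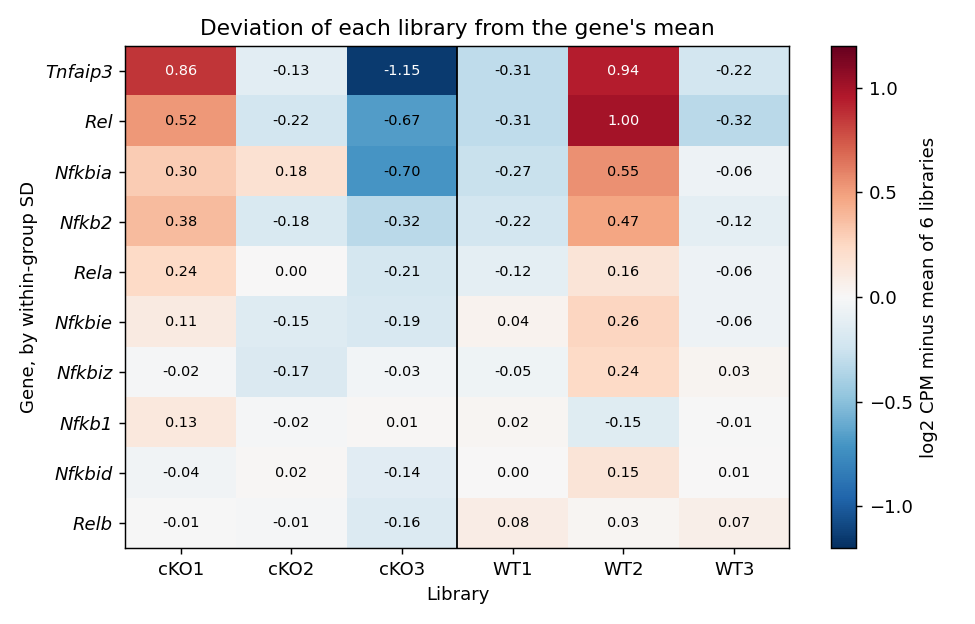
Log2 CPM of each gene in each library minus the gene's mean over the 6 libraries (colour and printed value), with cKO libraries on the left, WT libraries on the right and genes ordered by pooled within-group SD. The top 4 rows are red in cKO1 and WT2 and blue in cKO3, from 1.0 for Rel in WT2 to -1.15 for Tnfaip3 in cKO3.

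Genes whose profile lay closest to that of Tnfaip3 were sought among 8753 genes with a mean of at least 10 CPM, by the root mean square difference of their centred log2 CPM over the 6 libraries. The closest were Spty2d1 with a difference of 0.12, Ubald2 with 0.14 and Tgif1 with 0.15, the last a homeodomain repressor. Rasgef1b and a gene without a name in the table followed, each with 0.17. Rel ranked 23 in likeness, at 0.25, Nfkbia 94, at 0.36, and Nfkb2 196, at 0.44. The rest of the 10 ranked further off: Rela 627, Nfkbie 754, Nfkbid 1755, Nfkbiz 1805, Relb 2376 and Nfkb1 4331. Spty2d1 stood at 341, 185 and 103 CPM in the cKO libraries, against 163, 458 and 173 CPM in the WT libraries. The genes were ranked by likeness over libraries that differ in several ways, and the ranking carries no test.

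Levels can be compared between genes only per length, on the authors' FPKM scale. By the mean of the 6 libraries, Tnfaip3 was highest at 642 FPKM (265 to 1075) and Nfkbia second at 436 FPKM (263 to 603), and their ranges overlapped. Nfkb1 followed at 111 FPKM (98.1 to 118) and Nfkbiz at 107 FPKM (98.1 to 128), which overlapped each other and no other gene. Next came Rela at 77.6 FPKM (68.5 to 87.3) and Nfkbid at 76.9 FPKM (68.9 to 84.5), which also overlapped. Nfkb2 at 47.7 FPKM (41.2 to 56.4), Rel at 39.4 FPKM (24.5 to 67.8) and Relb at 33 FPKM (29.7 to 35.5) formed a run in which Rel overlapped both neighbours. Nfkbie was lowest at 18.5 FPKM (17.2 to 20.8), below every value of the other genes.

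Estimated reads and FPKM together imply the transcript length that the authors' processing used for a gene in each library. For Nfkbia this length was 1569 bases in every library, and for Tnfaip3 it spanned 0.33% of its mean, so both scales give the same picture for these genes. For Nfkb2, by contrast, it was 4847, 4626 and 4276 bases in the cKO libraries, against 4293, 5201 and 4332 bases in the WT libraries. That span of 20.1% of the mean was at percentile 98.0 of 5735 genes with at least 10 FPKM in every library, whose median span was 1.83%. The libraries with the most Nfkb2 reads, WT2 and cKO1, were those with the greatest implied length, and the span among WT libraries was 1.61-fold in CPM but 1.27-fold in FPKM.

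The same quantity moved the other way in Nfkbiz and also varied in other members. For Nfkbiz the implied length was 4469.6, 4541 and 4874 bases in cKO libraries, against 4835, 4470.5 and 4816 bases in WT libraries, so that cKO1 and WT2 were lowest. Nfkbid had 2217, 2200.5 and 2326 bases in cKO libraries, against 2294, 2214 and 2291 bases in WT libraries. The spans were 12.5% for Nfkbie, 9.33% for Rel, 8.66% for Nfkbiz and 5.54% for Nfkbid, and 1.77% to 2.51% for Nfkb1, Rela and Relb. GENCODE M21 lists 4 coding transcripts of Nfkb2, of 2979 to 3846 bases, all shorter than its implied lengths. The longest coding transcript was also below every implied length for Rel (its only one, 7466 bases), Nfkbid (2039), Nfkbie (2435) and Nfkbiz (4115). For Tnfaip3 it was so narrowly, at 4422 bases against 4425 to 4440. The sources used here do not name the transcript models behind the authors' values. The measure was added after the data were seen, and whether the mix of transcripts differed between libraries was not tested.

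**Figure D5:**
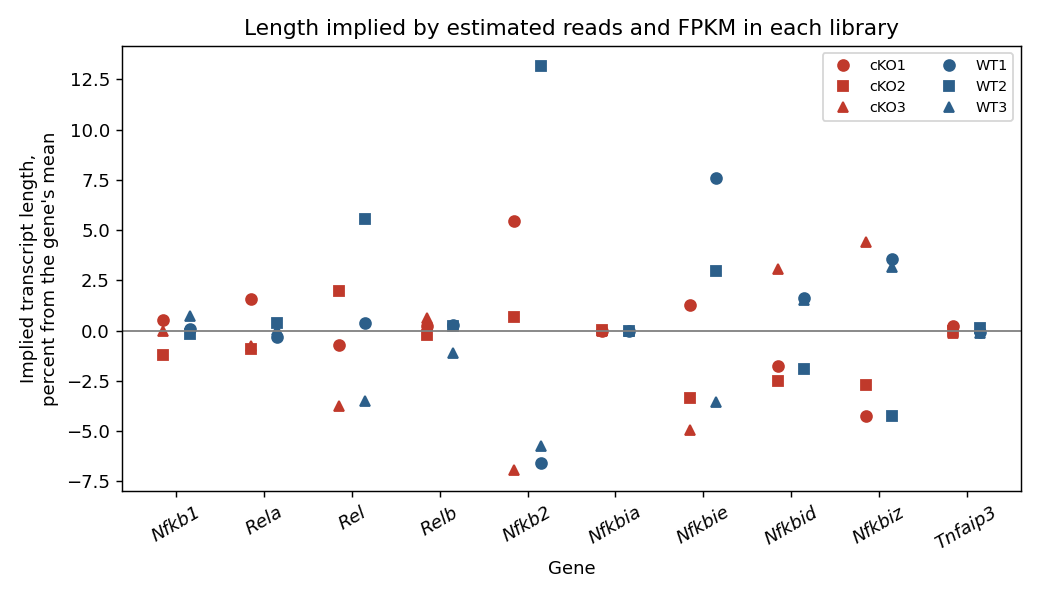
Transcript length implied by estimated reads and FPKM (vertical axis, percent from the gene's mean) for each gene and library, with cKO in red and WT in blue. Nfkbia and Tnfaip3 lie close to 0 in all libraries, whereas Nfkb2 is longest in WT2 and cKO1 and Nfkbiz shortest in the same libraries.

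Around the 10 genes, the wider pathway was read from lists of known components. For comparison, edgeR called 0.21% of all 12887 genes tested and DESeq2 called 1.37%. Over all genes tested, 991 had an unadjusted p under 0.05 by edgeR and 48.6% had a log2 fold change below 0. Of 17 further inhibitors and feedback regulators, 0 were called in either direction by edgeR or DESeq2 and 0 had an unadjusted p under 0.05. The log2 fold change was below 0 in 13, against 48.6% of all genes, and its median over these regulators was -0.03. Their most variable gene was Zc3h12a, which encodes an endoribonuclease that degrades inflammatory mRNAs, with a pooled SD of 1.09. It stood at 302, 133 and 68.5 CPM in cKO libraries, against 92.7, 358 and 97.9 CPM in WT libraries, with cKO1 and WT2 high and cKO3 low as for Tnfaip3. Bcl3, a nuclear IκB, stood at 76.7, 75.7 and 67.2 CPM in cKO libraries, against 89.2, 50.9 and 88.2 CPM in WT libraries. Within cKO it kept that order, with cKO1 highest and cKO3 lowest, but WT2 was its lowest library. Tnip3, a binding partner of the Tnfaip3 protein, stood at 0.872 to 1.95 CPM in cKO and 1.11 to 1.86 CPM in WT libraries, and Rnf11, which had the lowest p of the list, had an adjusted p of 0.882 (edgeR).

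Of 23 kinases and adaptors, 0 were called by edgeR or DESeq2 and 2 had an unadjusted p under 0.05, against 991 of all 12887 genes. These kinases and adaptors varied little, with a median pooled SD of 0.09 and a median log2 fold change of 0.05. Of them, 9 had a log2 fold change below 0, against 48.6% of all genes. Prkcq, the protein kinase C isoform that links the T cell receptor to NF-κB, had the lowest p. It stood at 428, 419.8 and 425 CPM in cKO libraries, against 355, 385 and 371 CPM in WT libraries (log2 fold change 0.20, adjusted p = 0.527, edgeR), and the groups did not overlap. Map3k14, which encodes NIK, stood at 101, 88.1 and 83.0 CPM in cKO libraries, against 81.6, 59.5 and 82.3 CPM in WT libraries, a narrow gap with an edgeR adjusted p of 0.749. Birc2, a ubiquitin ligase that restrains NIK, followed the library order of Tnfaip3 in part, with 153, 117 and 109.9 CPM in cKO libraries and 109.7, 188 and 109 CPM in WT libraries. Bcl10, an adaptor of antigen receptor signalling, was highest in the same libraries, at 73.1 CPM in cKO1 and 63.1 CPM in WT2.

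Receptors that feed the pathway gave 0 calls with edgeR and 2 with DESeq2 (Il18r1 and Il1rl1), which called 1.37% of all genes. Of 14 listed receptors 13 were tested, and 6 had an unadjusted p under 0.05, against 991 of all 12887 genes. A log2 fold change below 0 was found in 11, against 48.6% of all genes. The median was -0.31, against 0.004 over all genes. Il18r1, a chain of the interleukin-18 receptor, stood at 52.4, 53.9 and 57.0 CPM in cKO libraries, against 70.4, 85.6 and 81.2 CPM in WT libraries. Its groups did not overlap and its adjusted p was 0.0975 (edgeR), whereas DESeq2 called it (adjusted p = 0.000534). Cd28, the costimulatory receptor, stood at 541, 431 and 388 CPM in cKO libraries, against 537, 1049 and 576 CPM in WT libraries, with WT2 far above the rest. Its log2 fold change was -0.67 (adjusted p = 0.601, edgeR), -0.30 without WT2 and -0.44 without WT2 and cKO1. In CPM its groups overlapped, as cKO1 stood just above WT1. On the FPKM scale they did not, at 121, 99.7 and 90.7 in cKO and 126, 235 and 133 in WT libraries, with a narrow gap between cKO1 and WT1. The share of all genes without overlap was taken in CPM only. Tlr2 and Tlr4, receptors of bacterial products, were scarce, at no more than 5.26 and 1.22 CPM in any library.

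Genes reported as NF-κB targets gave 0 calls with edgeR among the 21 tested of 23. An unadjusted p under 0.05 was found in 7, against 991 of all 12887 genes. A log2 fold change below 0 was found in 14, against 48.6% of all genes, and the median was -0.18. Cd83, an activation marker, was nearest to a call. It stood at 40.8, 46.7 and 44.3 CPM in cKO libraries, against 76.6, 92.9 and 68.0 CPM in WT libraries, a log2 fold change of -0.85 with an adjusted p of 0.0590 (edgeR). It was called without WT2 and cKO1 (adjusted p = 0.0431), with no filter on low counts (adjusted p = 0.0419) and by DESeq2 (adjusted p = 1.57e-06). DESeq2 also called Bcl2a1b, Irf4 and the receptor gene Il1rl1 lower, genes chosen here after their values were seen, and the reads of Bcl2a1b can be shared with its near-identical copies. Ccr7, the chemokine receptor of lymph node homing, stood at 492, 333 and 243 CPM in cKO libraries, against 269, 655 and 285 CPM in WT libraries. Irf1, an interferon-responsive transcription factor, stood at 519, 379.9 and 246 CPM in cKO libraries, against 264, 547 and 272 CPM in WT libraries. Both repeated the order of Tnfaip3, with WT2 and cKO1 highest and cKO3 lowest. So did Gadd45b, a stress-induced signalling protein, at 101, 94.8 and 40.4 CPM in cKO libraries, against 88.8, 112 and 90.7 CPM in WT libraries. Its widest gap was between cKO3 and the other libraries.

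Immediate early genes, which respond within minutes to antigen receptor signals and to handling of cells, were read to describe the libraries that stood apart. Their list was chosen with earlier results of these data known. Of 23 such genes, 15 were highest in WT2 among WT libraries, against 40.8% of all genes tested. Among cKO libraries, 14 were lowest in cKO3 and 6 highest in cKO1, against 32.1% and 36.8% of all genes. The mean deviation of the 23 genes from the 6-library mean was -0.09 in cKO1, 0.15 in cKO2 and -0.39 in cKO3. In the WT libraries it was -0.02 in WT1, 0.31 in WT2 and 0.04 in WT3 (log2). The 10 NF-κB genes had means of 0.25, -0.07 and -0.36 in cKO1, cKO2 and cKO3 and of -0.11, 0.36 and -0.07 in WT1, WT2 and WT3. Nr4a2, a nuclear receptor induced by antigen, had the widest spread (pooled SD 1.26), with 154, 99.9 and 36.0 CPM in cKO libraries and 61.9, 327 and 56.7 CPM in WT libraries. Nr4a3, its relative, stood at 188, 102 and 81.7 CPM in cKO libraries, against 96.2, 290.1 and 103 CPM in WT libraries. Atf3, a stress-induced factor, stood at 5.06, 4.47 and 1.11 CPM in cKO libraries, against 5.16, 14.4 and 4.67 CPM in WT libraries. Klf6 had the lowest p of the list (log2 fold change -0.55, adjusted p = 0.233, edgeR), and 0 of the 23 were called by edgeR. An unadjusted p under 0.05 was found in 3 of the 23, against 991 of all 12887 genes. Their log2 fold change was below 0 in 15, against 48.6% of all genes. DESeq2 called 1 of the 23, which was Klf6 (log2 fold change -0.55, adjusted p = 0.00467). The part of these genes in the spread of the NF-κB genes was not tested.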

How the data were processed

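RNA was measured in sorted Treg cells, with groups and replicate numbers taken from the sample titles. The authors deposited estimated counts per gene, not normalized, of which 45.4% to 46.3% per library were not whole to within 0.01, and FPKM, the authors' normalized values. Both units were read from the column names and the values. Their group means were not used. Tools listed in the submitters' processing notes, with no role stated, are DESeq2 1.16.1, featureCounts 1.5.0-p3 and HISAT2 2.0.5, beside the build mm10. No source used here names the step that made the values fractional. The extraction used Trizol, per the labels.

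Estimated counts were rounded. In R 4.3.3, genes passing filterByExpr (minimum count 10) of edgeR 4.0.16 were scaled by TMM and tested with the quasi-likelihood F test (legacy set to TRUE), two-sided, with the group as the only term. Log2 CPM used a prior count of 2. The SE was derived from the F statistic. The common biological coefficient of variation was 16.7%. Implied length is estimated reads divided by FPKM and library total, scaled so that the median gene is equal in all libraries. Alternatives were DESeq2 1.42.0, voom of limma 3.58.1, other scalings and filters, the newer quasi-likelihood fit, a replicate block and libraries left out. Permuting 3 libraries against 3 exactly gives no two-sided p below 0.1. The code was checked on simulated counts. Named from each pathway list were called genes or else the gene with the lowest p, and the 3 with the largest pooled SD. The genes, lists and tests were chosen with earlier results of these data known. Bcl2a1b, Il1rl1, Irf4 and Tnfrsf1b were named after their values were seen.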

Additional observations from a re-analysis of the deposited data

How the results depend on the processing

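None of the 10 NF-κB genes was called in any of the 15 alternatives, where their lowest adjusted p was 0.452. The replicate block and 5 of the fits with a library left out called no gene at all, so they could not show otherwise. The sign of several fitted differences rested on single libraries. The count of called genes, 27, became 43 with no filter on low counts, 177 with DESeq2 and 71 without WT2 and cKO1. It was 0 to 30 with a library left out, and 0 without WT1, WT3, cKO1, cKO2 or cKO3 (edgeR). Pathway list genes called numbered 1 (Cd83) with no filter, 5 with DESeq2, 2 (Cd83 and Tnfrsf1b) without WT2 and cKO1, and 0 to 0 with a library left out.

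The median log2 fold change of the 10 genes was -0.22 to 0.072 with a library left out, the highest without WT2. Tkt was called with library size only (-1.42), no filter (-1.41), the stricter filter (-1.41), DESeq2 (-1.41), the newer quasi-likelihood fit (-1.41) and without WT2 and cKO1 (-1.68), and ranged from -1.58 to -1.24 with a library left out. Its adjusted p ran from 2.17e-10 to 0.217.

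With a library left out, log2 fold changes that changed sign ran from -0.33 to 0.16 for Nfkb2, -0.69 to 0.27 for Rel, -0.10 to 0.13 for Rela, -0.31 to 0.15 for Nfkbia, -0.81 to 0.34 for Tnfaip3, -0.28 to 0.074 for Bcl3, -0.26 to 0.31 for Tnip3, -0.86 to 0.81 for Zc3h12a, -0.14 to 0.18 for Bcl10, -0.26 to 0.21 for Birc2, -0.47 to 0.39 for Tlr2, -0.49 to 0.36 for Ccr7, -0.52 to 0.012 for Gadd45b, -0.21 to 0.51 for Irf1, -1.13 to 0.70 for Nr4a2 and -0.82 to 0.32 for Nr4a3. Without WT2 and cKO1 together, the sign also turned for Nfkb1 (-0.0097), Rela (-0.0094), Tnip3 (-0.072), Zc3h12a (0.081), Bcl10 (-0.032), Birc2 (0.054), Tlr2 (0.55), Ccr7 (0.056) and Nr4a2 (0.20). Tnip3 turned with limma-voom (-0.0040). The cause was not tested.

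Of 80 within-group log2 ranges recomputed with other scalings or from FPKM with a pseudocount of 0.1 or 1, 14 moved by over 1.5 times, in Nfkb1, Nfkb2, Relb, Nfkbid and Nfkbie. With FPKM and a pseudocount of 1, the range was 0.13 for Nfkbie in cKO (0.30 in CPM), 0.071 for Nfkb1 in cKO (0.15 in CPM), 0.34 for Nfkb2 in WT (0.69 in CPM) and 0.12 for Relb in WT (0.058 in CPM). Deviations of same-numbered libraries from their group means had correlations across genes of -0.28, 0.06 and 0.26 for replicates 1, 2 and 3. Those of libraries with unlike numbers ran from -0.38 to 0.31. The labels do not say whether the numbers pair the samples. These values cannot decide it, because deviations within a group of 3 sum to 0 and depend on each other. With the replicate block, 0 genes were called.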
